A study of Homo sapiens with 24 samples.

Results

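The 80 genes described here encode the proteins of the cytosolic ribosome and a few of their close paralogues. They were taken by symbol from the 13236 gene groups of the count tables: a group belonged when its name was RPL or RPS and a number, with an optional A, X or L ending and a further number, or was RPLP0, RPLP1, RPLP2 or RPSA. The rule uses symbols only, although it was set with earlier results of these data known. By symbol, 44 are large-subunit genes, 30 are small-subunit genes and 6 are paralogues whose names end in L or L1 (RPL3L, RPL7L1, RPL22L1, RPL26L1, RPL39L and RPS27L). Another 9 groups with similar names were left out, among them RPS15A, which the tables merge with neighbouring genes, and RPL36AL, which the naming rule does not reach.

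A ribosome joins a large and a small subunit, and each holds ribosomal RNA and a set of proteins that are each needed in about equal numbers. Cells keep the messenger RNAs of these proteins abundant, and many of them start with a run of pyrimidines, the 5′ terminal oligopyrimidine or TOP motif, through which growth signals control their translation. Several of the genes carry small nucleolar RNAs (snoRNAs) in their introns, and some keep an intron in a share of their polyadenylated transcripts, a detained intron, which holds the transcript in the nucleus.

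The cells were HEK293T, an established line derived from human embryonic kidney, and poly(A) RNA from them was sequenced in a strand-specific way. The OSMI-2 experiment compared OSMI-2 at 10 µM with DMSO, and the TMG experiment compared TMG at 5 µM with DMSO, each after 2 h and after 6 h. OSMI-2 inhibits OGT, the enzyme that puts O-linked N-acetylglucosamine (O-GlcNAc) on intracellular proteins, and TMG inhibits the enzyme that removes it, OGA, named MGEA5 in the tables. Each drug and time had DMSO libraries of its own. The labels give 3 libraries per group, and OSMI-2 at 6 h had 2 here. They do not say whether replicates were separate cultures, so p-values measure the spread between these libraries, which may be technical. The labels name both Trizol and a column kit for RNA extraction and do not say which library received which. In bulk RNA, fewer cells with a transcript and less transcript per cell cannot be told apart.

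Libraries held 39465746 to 100161560 bin counts. All 8 genes of a marker list for this line were listed, at very different levels. In counts-per-million (CPM), VIM was at 306 to 787 and KRT18 at 16.8 to 112. KRT8 was at 9.33 to 70.5, NEFL at 15.7 to 31.3 and INA at 7.71 to 35.5. PAX2 (1.21 to 4.2), NEFM (0.30 to 2.2) and LHX1 (0.06 to 0.69) were low, so not every marker was clearly expressed. Of 8 markers of other cells, the blood, liver and endothelial ones (PTPRC, CD3E, ALB, APOA1, PECAM1 and VWF) were not listed, and the fibroblast genes COL1A1 and COL3A1 were at 6.28 to 20.4 and 0.15 to 0.79 CPM. Transcripts of OGT were lower with OSMI-2 at 6 h (42.7 and 65.5 normalised CPM) than with DMSO (128 to 289). The DMSO libraries of that experiment at 2 h, scaled apart, had 30.7 to 54.3. MGEA5 was also lower with OSMI-2 at 6 h (log2 difference −1.93). With TMG at 6 h, transcripts of MGEA5 were higher (log2 difference 0.72) and those of OGT lower (−0.48). The drugs act on the enzymes themselves, so transcript levels do not check dosing. The experiments differed in how a gene's level moved with the GC content of its transcripts. The slope of a gene's log2 CPM, taken relative to that gene's mean over all 23 libraries, was −0.45 to −0.72 per 10 percentage points of GC in the TMG experiment and 0.51 to 0.79 in all but 1 library of the OSMI-2 experiment. That library, DMSO library a at 6 h, stood apart at 0.16, so the counts of members called, and most of the members named as passing, are also given without it.

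The short stretches around the annotated transcription start are shown for the members that the results below turn on, because most members share a feature there. They come from RefSeq on GRCh38.p14, run 5′ to 3′ on the gene's strand, and hold 20 bases before the start and 20 from it. Capitals mark a C at the start together with the unbroken run of C and T that follows, where that run has at least 4 bases.
RPL28: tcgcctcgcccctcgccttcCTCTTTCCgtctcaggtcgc
RPL24: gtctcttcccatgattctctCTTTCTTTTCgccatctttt
RPL22L1: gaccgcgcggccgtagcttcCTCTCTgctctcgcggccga
RPS3A: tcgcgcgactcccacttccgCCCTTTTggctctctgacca
RPLP2: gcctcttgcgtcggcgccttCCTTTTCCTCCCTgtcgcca
RPS18: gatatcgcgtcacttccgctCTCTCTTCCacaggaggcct
RPL9: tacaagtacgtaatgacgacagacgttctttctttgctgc
RPS15: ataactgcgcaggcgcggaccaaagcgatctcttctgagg
RPS27L: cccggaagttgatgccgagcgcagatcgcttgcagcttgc
These windows lie at chr19:55385912-55385951 (plus strand, RPL28), chr3:101686699-101686738 (minus, RPL24), chr3:170870176-170870215 (minus, RPL22L1), chr4:151099608-151099647 (plus, RPS3A), chr11:809947-809986 (plus, RPLP2) and chr6:33272055-33272094 (plus, RPS18). Those without capitals lie at chr4:39458903-39458942 (minus, RPL9), chr19:1438376-1438415 (plus, RPS15) and chr15:63157458-63157497 (minus, RPS27L). The feature counted was a C exactly at an annotated start followed by at least 4 bases that are each C or T, on the gene's own strand. It was found for 45 of the 64 members in the promoter table (70.3%), against 1404 of its 27305 genes (5.14%). The other 16 members were not in that table. Among the members shown, the run of C and T was longest in RPLP2 and absent at this position in RPL9, RPS15 and RPS27L. A match describes the letters at the annotated start, and its absence says only that the letters are not at that position.

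The members took up a large share of every library, as the plot of shares by library shows. In the OSMI-2 experiment they held 18.8 to 20.8% of all counts in the DMSO libraries at 2 h and 18.8 to 21.0% in the OSMI-2 libraries at 2 h. At 6 h they held 12.7, 14.2 and 15.5% in the DMSO libraries, and 16.5 and 16.2% in the OSMI-2 libraries. The 6 h DMSO libraries were thus the lowest of that experiment, and the OSMI-2 libraries of the same time lay between them and the 2 h libraries without overlap. In the TMG experiment all 12 libraries lay between 11.3 and 13.3%, and the TMG groups overlapped their DMSO groups at both times. The DMSO libraries of that experiment at 6 h (11.3, 11.8 and 12.4%) lay just below those at 2 h (12.4, 12.6 and 13.3%) without overlap. The ratio of large-subunit to small-subunit counts ran from 1.07 to 1.26 over all libraries.

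**Figure D1:**
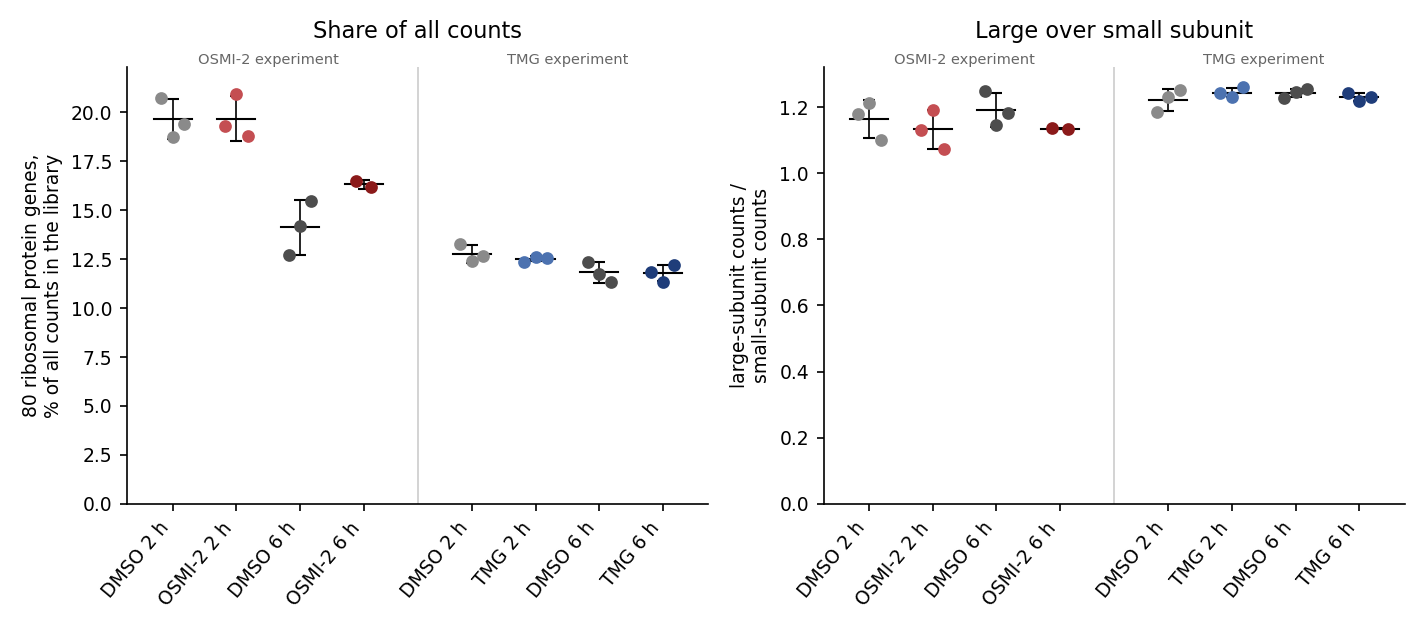
The left panel plots, for each library, the percentage of all counts that fell on the 80 ribosomal protein genes, and the right panel the ratio of large-subunit to small-subunit counts; points are libraries, horizontal lines group means and bars 1 SD. In the DMSO libraries of the OSMI-2 experiment the share was 18.8 to 20.8% at 2 h and 12.7 to 15.5% at 6 h, and the ratio over all libraries stayed between 1.07 and 1.26.

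Levels per length (CPM divided by the length of the gene's bins in kilobases) spanned a wide range among the members. In the DMSO libraries of the TMG experiment at 2 h, RPS18 had the highest mean, 5295 ± 619 CPM per kb (SD, n = 3). RPL37A, also among the highest, was at 4335 ± 128, and it differed from RPS18 by more than the sum of their SDs. The low end held paralogues: RPL22L1 at 30.9 ± 4.7, RPS27L at 22.7 ± 5.0 and RPL39L at 20.6 ± 2.3 CPM per kb, where neighbours differed by less than the sum of their SDs. In the DMSO libraries of the OSMI-2 experiment at 2 h the order began with RPL37A (8114 ± 272), RPS2 (7886 ± 1263) and the stalk gene RPLP1 (7643 ± 1537), which did not differ beyond their SDs. RPL3L, a paralogue known from striated muscle, passed the filter on low counts in some comparisons only, with a mean of 10.9 counts over the libraries of the OSMI-2 experiment.

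The paralogues were a small part of their pairs. RPL22L1, the paralogue of RPL22, stood at 16.9 to 21.5% of RPL22 per length in the DMSO libraries of the TMG experiment at 2 h, and at 9.28 to 13.8% in those of the OSMI-2 experiment. In the 6 h DMSO libraries of the OSMI-2 experiment it was at 3.63 to 5.11%, below every 2 h library of that experiment. RPL26L1 was at 4.93 to 5.58% of RPL26, RPL7L1 at 9.20 to 9.75% of RPL7, RPL39L at 3.38 to 4.25% of RPL39 and RPS27L at 0.432 to 0.627% of RPS27, all in the DMSO libraries of the TMG experiment at 2 h. Members are also copied widely in the genome: 74 of them have processed or other pseudogenes by name in GENCODE release 29, 1096 in all, with RPL23A at the top with 91. Reads shared with such copies could have been assigned to either, so the level of a single member is less certain than a difference between libraries.

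Replicates agreed more closely in the TMG experiment. Over 78 members, the median coefficient of variation within a group was 2.68 to 5.79% there and 11.7 to 18.1% in the OSMI-2 experiment. RPL9, a large-subunit protein gene, varied most in both 2 h groups of the OSMI-2 experiment, at 65.9 and 86.0%, whereas it stayed between 2.24 and 5.49% in the TMG experiment. The 3 libraries of the OSMI-2 experiment at 2 h with 1249 to 1602 normalised CPM of RPL9 had GC slopes of 0.51 to 0.57, and the 3 with 237 to 353 had slopes of 0.74 to 0.78. The part of GC in the spread of RPL9 was not tested.

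OSMI-2 at 2 h left the members without a detectable difference from DMSO. None of the 78 members tested passed an adjusted p of 0.05 (edgeR's quasi-likelihood test on counts, Benjamini-Hochberg over all genes), and neither did any of the 12343 genes tested (0%). At an unadjusted p under 0.05 there were 160 genes and 0 members. The median log2 fold change of the members was −0.04, beside −0.01 over all genes, and the median SE of a member was 0.18. DESeq2 called 0 members and 1 gene. The largest positive values were RPLP1 (0.19) and RPLP2 (0.17), both acidic proteins of the ribosomal stalk, and the small-subunit gene RPS16 (0.14). The lowest were RPL9 (−0.91), RPS3A (−0.48) and RPL22L1 (−0.40). RPL9 was at 353, 1249 and 237 normalised CPM with OSMI-2 and at 1602, 1576 and 270 with DMSO. The third DMSO library was thus as low as the low OSMI-2 libraries, and the groups overlapped. RPL5 and RPL11, which join the large subunit together with its smallest ribosomal RNA and can also bind MDM2, had log2 fold changes of −0.08 and −0.05.

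With OSMI-2 at 6 h a few members differed from DMSO, 3 upward and 1 downward, a split that turned into 0 upward and 3 downward with DESeq2's size factors. Of 79 members tested, 3 rose and 1 fell by the same test, beside 617 of 12484 genes (4.94%, with 2.57% higher and 2.37% lower), so the share of members was near that of all genes. The median log2 fold change was 0.34 for the members and 0.15 for all genes, and 54 of the 79 members were above 0. All 4 that passed were large-subunit genes. None of the 29 small-subunit members passed, though their median of 0.37 was close to the 0.38 of the large subunit, and of the 27 members that host snoRNAs 1 rose.

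RPL28, a large-subunit protein gene, was at 1492 and 1878 normalised CPM with OSMI-2 and at 450.0, 828.0 and 877 with DMSO. Both OSMI-2 libraries lay above every DMSO library, and the log2 difference was 1.23 (SE 0.36, adjusted p = 0.0272). RPL23A, whose protein lies at the exit of the peptide tunnel, was at 1072 and 1368 against 560, 501 and 692. It was higher by 1.06 (SE 0.34, adjusted p = 0.0498), just inside the threshold and again without overlap. DMSO library a was the lowest in RPL28 and the next to lowest of the DMSO libraries in RPL23A.

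RPL9 moved the other way. It was at 170.0 and 118 normalised CPM with OSMI-2 and at 428, 211 and 802 with DMSO. Both OSMI-2 libraries lay below the DMSO libraries, which differed widely among themselves, and the log2 difference was −1.74 (SE 0.36, adjusted p = 0.00167). Of the paralogues, RPS27L, known as a target of p53, was at 15.2 and 14.5 against 37.1, 18.3 and 37.0, which gave −1.05 (SE 0.34) and missed the threshold with an adjusted p of 0.0509. The other paralogue pairs also missed it: RPL22L1 had 0.34 beside −0.17 for RPL22, RPL26L1 had −0.21 beside 0.18 for RPL26, RPL39L had −0.44 beside −0.25 for RPL39 and RPL7L1 had −0.49 beside −0.26 for RPL7.

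The stalk genes had positive values at 6 h that did not pass. RPLP2 was at 4484 and 5414 normalised CPM against 1689, 2908 and 3205, a log2 difference of 0.93 (SE 0.39, adjusted p = 0.132). RPLP1 (0.71) and RPLP0 (0.70), the protein that anchors the stalk, were alike in size, and no OSMI-2 library overlapped the DMSO libraries in any of the 3 genes. RPL5 had 0.66 and RPL11 had 0.06, both short of the threshold. Among the members with a detained intron, RPL13 had 1.12 (SE 0.40, adjusted p = 0.0731), RPL7A 0.25, RPS3A 0.04 and RPL3 −0.17.

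These calls depended on scaling and on single libraries. With DESeq2's size factors in place of TMM over genes and introns, the median of all genes went from 0.15 to 0.00 and the median of members from 0.34 to 0.20. All genes called split into 321 higher and 296 lower with TMM and into 91 higher and 466 lower with those size factors. Without DMSO library a, 27 members were higher and 3 lower. How many of all genes passed without single libraries is not given here, so these counts are not read as particular to the members. In the fit without DMSO library a, RPL28 had 1.03 (adjusted p = 0.00229), RPL23A 1.08 (adjusted p = 0.00437) and RPL9 −1.76 (adjusted p = 0.036). Without DMSO library b 2 members passed, and without DMSO library c or either OSMI-2 library 0 did.

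**Figure D2:**
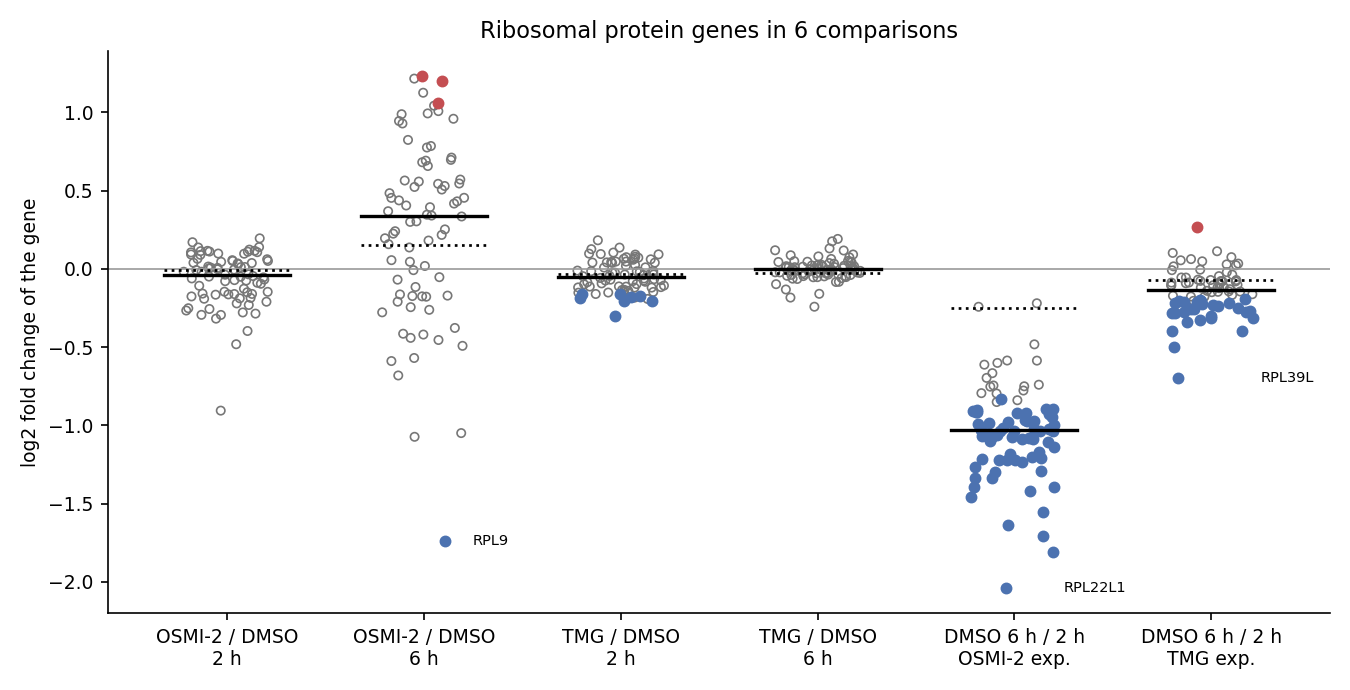
Log2 fold changes of the members in 6 comparisons, 1 point per gene without RPL3L; filled points passed an adjusted p of 0.05 (red higher, blue lower), open points did not, solid lines are the median of members and dotted lines the median of all genes tested, and names mark the largest passing change in 3 comparisons. The OSMI-2 values at 6 h spread from −1.74 to 1.23, the TMG values stay between −0.30 and 0.19, and every member lies below 0 between the DMSO groups of the OSMI-2 experiment as scaled here.

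With TMG at 2 h a few members were slightly lower, in a share close to that of all genes. Of 78 tested, 8 fell (10.3%) and 0 rose, beside 978 of 12361 genes (7.91%, with 6.67% lower and 1.25% higher). With all libraries in 1 fit 0 members passed, and with the GC trend removed 1 did. Among them were the large-subunit genes RPLP2, RPLP1, RPL8, RPL13 and RPL28 and the small-subunit genes RPS18 and RPS15. The log2 fold changes of the 8 ran from −0.30 to −0.16, and the median of all members was −0.05 beside −0.03 for all genes. At an unadjusted p under 0.05 there were 25 members.

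RPLP2 was at 1205, 1216 and 1328 normalised CPM with TMG and at 1517, 1370 and 1439 with DMSO, a log2 difference of −0.21 (SE 0.05, adjusted p = 0.0152). RPLP1 was at 1515, 1528 and 1584 against 1880, 1658 and 1737, a log2 difference of −0.19 (SE 0.05, adjusted p = 0.0229). Neither stalk gene had overlapping groups, and the third stalk gene, RPLP0, had −0.11 and an adjusted p of 0.188. RPS18, the member with the highest level per length in this experiment, was at 3567, 3825 and 3617 against 4911, 3925 and 3848, a difference of −0.20 (SE 0.06, adjusted p = 0.0464). Here 1 DMSO library, a, was far above the others. RPL8 had −0.18 (adjusted p = 0.0348) and RPS15, a small-subunit protein gene rich in GC, had −0.17 (adjusted p = 0.0318). RPL13 (−0.16, adjusted p = 0.0445) and RPL28 (−0.16, adjusted p = 0.0483) also fell.

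None of the paralogues passed at that time: RPL22L1 had 0.18 (adjusted p = 0.0914), RPS27L 0.14, RPL7L1 0.08, RPL26L1 0.01 and RPL39L −0.18. RPL5 and RPL11 had −0.04 and 0.06. The number of members that passed was 3 with DESeq2's size factors. Leaving out TMG library b gave 0, and leaving out DMSO library c gave 14. It was 4 without DMSO library a and 1 without TMG library a or c. With the longest bin of each gene in place of the sum of its bins, RPS18 (0.12) and RPS15 (0.27) had the opposite sign and did not pass.

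At 6 h of TMG no member passed. The test called 0 of 78 members beside 730 of 12103 genes (6.03%, with 1.19% higher and 4.84% lower), and 3 members had an unadjusted p under 0.05, while DESeq2 called 1. The median of members was 0.00, with quartiles at −0.04 and 0.02, and the median SE was 0.07. RPS27A, a fusion of ubiquitin and a small-subunit protein, had the highest value (0.19, adjusted p = 0.199), followed by RPL22 (0.18, adjusted p = 0.0707) and RPL21 (0.13). RPL39L (−0.24), RPL28 (−0.18) and RPS15 (−0.16) were lowest. RPL22 was at 567, 547 and 555 normalised CPM with TMG and at 476, 496 and 506 with DMSO. Its groups did not overlap, although it missed the threshold.

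**Figure D3:**
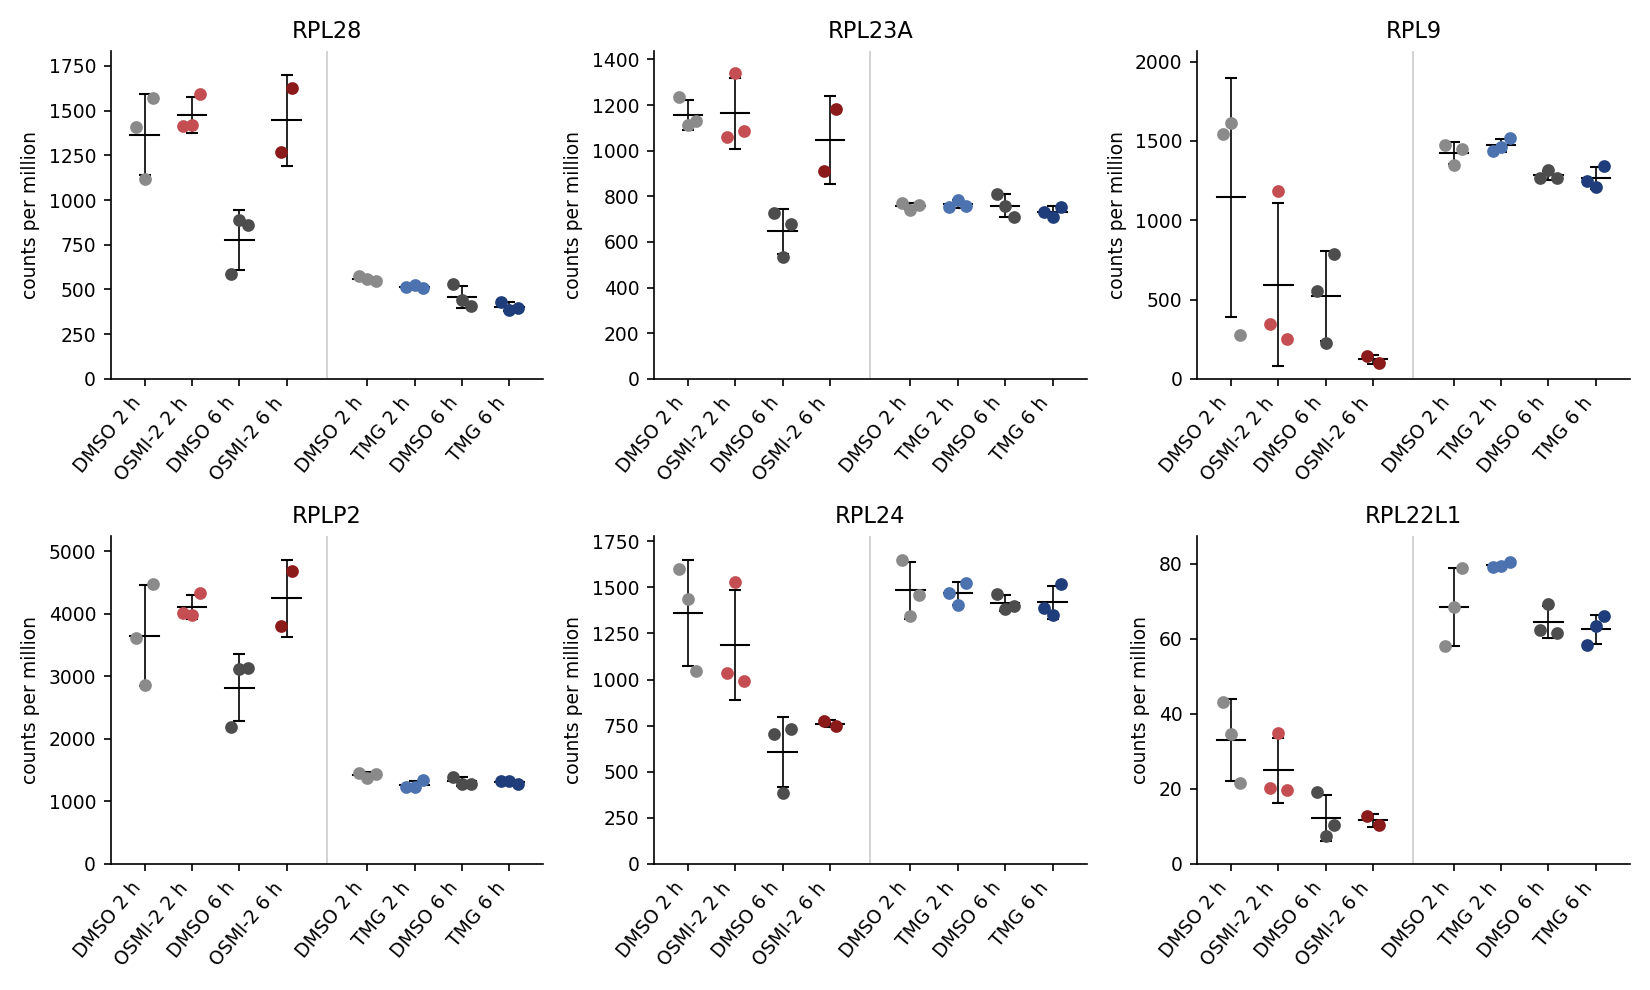
CPM of the library's total, without further scaling, for 6 members in all 23 libraries; points are libraries, horizontal lines group means and bars 1 SD, with the OSMI-2 experiment left of the grey line and the TMG experiment right of it. RPL28 and RPL23A are lowest in the DMSO libraries at 6 h within the OSMI-2 experiment, and RPL9 scatters widely there. The TMG experiment mostly shows less spread, widest relative to the mean in RPL22L1 with DMSO at 2 h and RPL28 with DMSO at 6 h.

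Between the DMSO groups of the OSMI-2 experiment the members were lower at 6 h than at 2 h. These libraries are also the controls of the OSMI-2 comparisons above, so the values stand side by side and do not support each other. Of 78 members tested, 60 fell and 0 rose, beside 2289 of 12343 genes (18.5%, with 14% lower and 4.59% higher). The median log2 fold change was −1.03 for members and −0.25 for all genes, and all 78 members were below 0. By role, 34 of 44 large-subunit, 25 of 29 small-subunit and 1 of 5 paralogue members fell. With DESeq2's size factors 26 members fell and 0 rose, with a median of −0.80 beside −0.02 for all genes.

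RPL22L1 fell most: it was at 13.2, 6.36 and 9.69 normalised CPM at 6 h and at 53.1, 40.0 and 27.0 at 2 h, a log2 difference of −2.04 (SE 0.30, adjusted p = 7.5e-05). Its partner RPL22 had −0.61 and did not pass. RPL24, a late-joining protein of the large subunit, was at 487, 333 and 691 against 1969, 1660 and 1312. It fell by 1.71 on the log2 scale (SE 0.31, adjusted p = 0.000542) with no overlap. RPS3A, the small-subunit gene that hosts a snoRNA and a detained intron, was at 223, 120.0 and 169 against 838, 612 and 343, and fell by 1.81 (SE 0.31, adjusted p = 0.000299). RPS20 (−1.56) and RPL17 (−1.46) fell too. RPL9 passed at −1.64, yet its 2 h library c, at 344, lay inside the range of the 6 h libraries. The other tested paralogues did not pass: RPL26L1 had −0.67, RPL39L −0.48, RPS27L −0.24 and RPL7L1 −0.22.

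The count moved with single libraries, from 12 without DMSO 2 h library a to 65 without 6 h library a. It was 27 without 2 h library b, 29 without 2 h library c and 32 without 6 h library b. Shares of all genes called in these fits are not given here. Without 6 h library a, RPL22L1 had −2.30, RPS3A −2.03, RPL17 −1.81, RPL24 −1.67 and RPS20 −1.47, and each still passed. The fixed lists of other genes moved the same way with smaller medians. Of 19 other translation genes with known TOP transcripts 8 fell and 0 rose (median −0.77), and of 41 ribosome biogenesis genes 12 fell and 0 rose (median −0.63).

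In the TMG experiment the members changed less in size between the DMSO groups, although 45.9% of all genes were called, beside 18.5% in the OSMI-2 experiment. Of 78 members, 28 fell and 1 rose from 2 h to 6 h (37.2%, with 35.9% lower). Of all genes, 5641 of 12294 were called (45.9%, with 29.6% lower and 16.3% higher), a larger share than among the members. The median was −0.14 for members beside −0.07 for all genes. RPL39L fell by 0.70 on the log2 scale (SE 0.14, adjusted p = 0.000241), from 4.95, 5.67 and 5.94 to 4.05, 3.10 and 3.04 normalised CPM. RPL13 (−0.50), RPS2 (−0.40), RPL8 (−0.40), RPL28 (−0.34) and RPS7 (−0.31) also fell. The 1 that rose was RPL26L1, from 74.8, 75.2 and 79.1 to 95.6, 91.1 and 88.4 normalised CPM (log2 difference 0.26, SE 0.07, adjusted p = 0.00386), while its partner RPL26 fell by 0.23. With DESeq2's size factors 4 members rose and 16 fell.

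The effects were then tested against each other. For OSMI-2, the effect at 6 h minus that at 2 h passed for 0 of 79 members (0.111% of all genes, with 0.0158% higher and 0.095% lower), with 13 at an unadjusted p under 0.05. For TMG, 0 of 78 passed (0.0242% of all genes, with 0.0161% higher and 0.00807% lower), with 5 unadjusted. The OSMI-2 effect minus the TMG effect at 2 h passed for 0 of 79 members and 0% of genes, with 2 members unadjusted. At 6 h the OSMI-2 effect exceeded the TMG effect in 15 of 79 members and lay below it in 2 (21.5% together), beside 2500 of 12563 genes (19.9%, with 16.9% higher and 2.97% lower), so the share of members was near that of all genes. That fit pooled the spread between replicates over both experiments, so its p-values may understate the spread of the OSMI-2 experiment. RPL28 had the largest positive difference (1.57, adjusted p = 0.0128). Its SE of 0.33 was below the 0.36 of its OSMI-2 effect alone. RPL9 (−1.58, adjusted p = 0.0373) and RPL30 (−0.97, adjusted p = 0.0394) were the 2 with the opposite sign. The count was 60 without DMSO 6 h library a of the OSMI-2 experiment and 0 without its OSMI-2 library b. It was 32 without DMSO 6 h library c and 9 without OSMI-2 library a of that experiment, and 2 to 8 without any 1 of the 6 libraries of the TMG experiment at 6 h. Leaving out any 1 of those 6 ended the calls of RPL9 and RPL30. Shares of all genes called with libraries left out are not given here.

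Other genes of translation were read beside the members. With OSMI-2 at 6 h, 5 of 19 other TOP and translation genes rose and 0 fell (median 0.63): the translation factors EIF3F (1.04) and EIF3H (1.01), the poly(A)-binding protein PABPC1 (1.12), NACA (1.33), part of the nascent-chain complex, and the importin IPO7 (1.08). Of 41 ribosome biogenesis genes 1 rose, UTP20 (1.07), a factor of small-subunit assembly, and 0 fell. With TMG at 2 h 0 of either list passed, with 3 and 9 genes at an unadjusted p under 0.05. Members with the pyrimidine run at an annotated start had a median log2 fold change of 0.40 (45 genes) with OSMI-2 at 6 h, beside −0.17 for the 19 without it. In each set 1 gene passed. The 19 included RPL9 and the paralogues RPL7L1, RPL26L1 and RPS27L, and the difference between the medians was not tested. In the DMSO comparison of the OSMI-2 experiment these medians were −1.03 and −0.91, and with TMG at 2 h they were −0.08 and −0.02.

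The size of a member's change went with the GC content of its transcripts, as the plot of fold change against GC shows. Across 78 members Pearson's r was 0.51 for OSMI-2 at 2 h, 0.53 for OSMI-2 at 6 h, −0.61 for TMG at 2 h and −0.36 for TMG at 6 h, and across all genes it was 0.31, 0.26, −0.35 and −0.29. These are descriptions across genes of the same libraries, which share depth and library preparation. The 39 members above the median GC of 49.0% had a median of 0.52 with OSMI-2 at 6 h and the 39 below it 0.14. With TMG at 2 h these medians were −0.11 and 0.02. In libraries the GC slope at 2 h was −0.49 to −0.56 with TMG and −0.45 to −0.50 with DMSO. With the trend on GC taken out of the counts, 1 member passed with TMG at 2 h instead of 8, and 24 with OSMI-2 at 6 h (20 higher and 4 lower) instead of 4. How many of all genes passed after that step is not given here. The part of GC in these results was otherwise not tested.

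**Figure D4:**
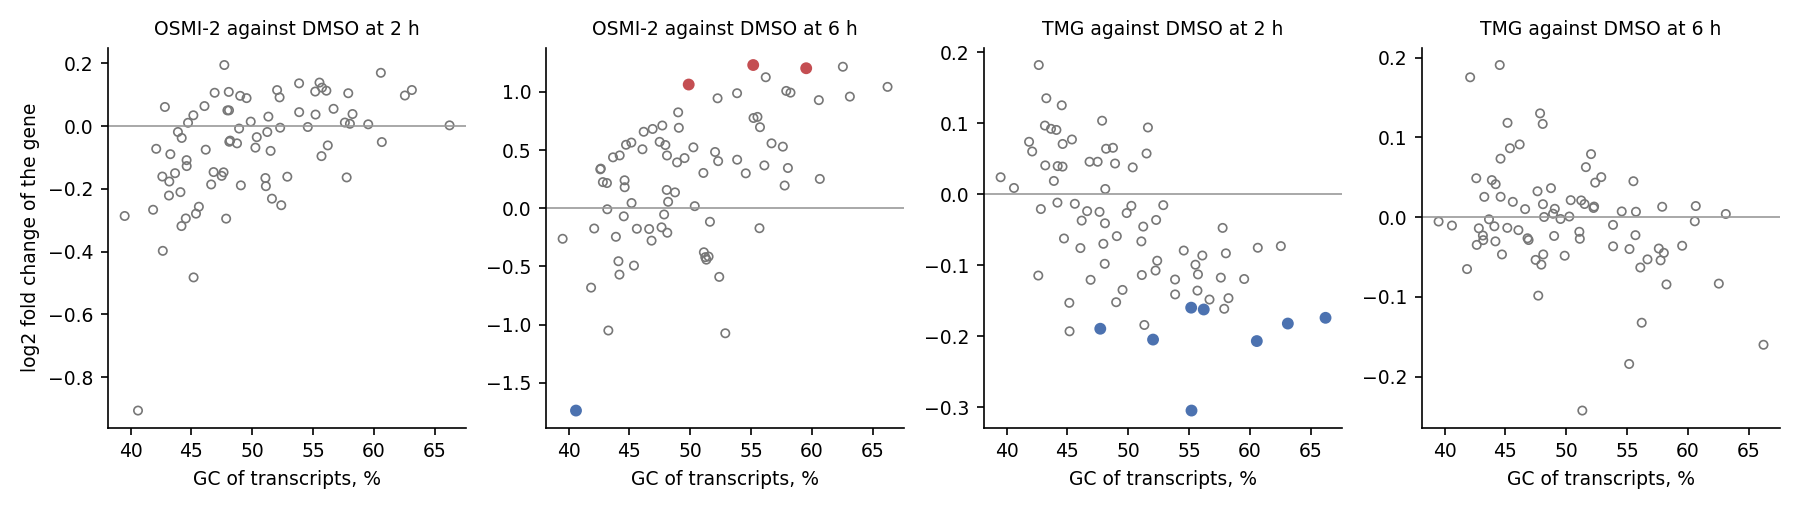
Log2 fold change of each member against the GC content of its transcripts in percent, in the 4 drug comparisons (vertical scales differ); filled points passed an adjusted p of 0.05, red higher and blue lower. The points rise with GC for OSMI-2 (r of 0.51 and 0.53) and fall with GC for TMG (r of −0.61 and −0.36).

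The 7 bins that the authors class as detained introns lie in 6 members. In hg19 coordinates they are chr1:24021282-24021347 and chr1:24021348-24022261 in RPL11 (plus strand, adjoining bins of 66 and 914 bases), chr22:39712890-39713465 in RPL3 (minus), chr4:152024232-152025328 in RPS3A (plus), chr4:39456565-39458025 in RPL9 (minus), chr16:89627777-89627985 in RPL13 (plus) and chr9:136217583-136217808 in RPL7A (plus). The adjoining RPL11 bins carry the same intron label, so counts out of 7 below are counts of bins. All 7 were rare against their genes. In DMSO at 2 h of the TMG experiment the long RPL11 bin had 0.376, 0.401 and 0.405% of the gene's exon counts, the RPL3 intron 0.304, 0.339 and 0.349% and the RPS3A intron 0.595, 0.759 and 0.704%. The RPL9 intron reached 2.92% in 1 OSMI-2 library at 6 h, the highest of all.

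With OSMI-2 at 6 h 5 of the 7 fell, beside 4063 of 4677 detained introns (86.9%, with 86.3% lower and 0.599% higher). Their median log2 fold change was −0.75 and that of all detained introns −1.55. The long RPL11 bin was at 2.11 and 2.86 normalised CPM with OSMI-2 and at 10.0, 6.73 and 7.80 with DMSO. The groups lay far apart, and it fell by 1.71 on the log2 scale (SE 0.29, adjusted p = 2.88e-08). The RPL3 intron was at 10.5 and 11.9 against 20.1, 24.3 and 27.4 and fell by 1.10 (SE 0.26, adjusted p = 7.67e-05). The introns of RPS3A (−0.75, adjusted p = 0.0113) and RPL9 (−0.66, adjusted p = 0.0228) and the short RPL11 bin (−1.01, adjusted p = 0.00122) also fell. The calls of RPS3A and RPL9 were lost without DMSO library a (−0.27, adjusted p = 0.375, and −0.45, adjusted p = 0.115) and without OSMI-2 library a (−0.47, adjusted p = 0.236, and −0.43, adjusted p = 0.247). Without DMSO library a the long RPL11 bin had −1.50, the RPL3 intron −1.17 and the short RPL11 bin −0.87, and these 3 passed. The RPL7A intron had −0.55 (adjusted p = 0.0628) and the RPL13 intron 0.42 (adjusted p = 0.113). With TMM scaling over detained introns alone the introns of RPL9 and RPS3A were higher instead, by 0.82 and 0.75, and the short RPL11 bin (0.45) and the RPL3 intron (0.36) also changed sign.

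Relative to the counts of the own gene (limma on log2 ratios), 4 of the 7 fell with OSMI-2 at 6 h and 1 rose, beside 4118 of 4616 introns (89.2%, with 89% lower and 0.217% higher). The long RPL11 bin fell by 1.78 (SE 0.38, adjusted p = 6.24e-05), from 0.726, 0.440 and 0.397% of the gene's counts to 0.123 and 0.172%. The short RPL11 bin (−1.08), the RPL3 intron (−0.93) and the RPS3A intron (−0.79) fell as well. The RPL9 intron rose by 0.89 (SE 0.40, adjusted p = 0.0343), where the gene itself was at −1.74 and the intron at −0.66 on the log2 scale. It held 1.42 and 2.92% with OSMI-2 and 1.31, 1.89 and 0.537% with DMSO. These groups overlapped. The RPL13 (−0.72) and RPL7A (−0.80) introns did not pass. With single libraries left out, 2 to 5 of the 7 passed. The call of the RPL9 intron was lost without DMSO library a (1.02, adjusted p = 0.0677), DMSO library c (0.37) or OSMI-2 library b (0.37), and that of RPS3A without DMSO library a (−0.67, adjusted p = 0.103), DMSO library b (−0.72) or OSMI-2 library a (−0.37). The RPL3 intron missed the threshold without DMSO library b (−0.93) or OSMI-2 library a (−0.65), and the short RPL11 bin without OSMI-2 library a (−0.93).

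TMG at 2 h raised 3 of the 7 bins, beside 398 of 4056 detained intron bins (9.81%, with 9.69% higher and 0.123% lower). The long RPL11 bin was at 7.55, 6.91 and 6.70 normalised CPM with TMG and at 4.96, 5.49 and 5.82 with DMSO. It rose by 0.38 (SE 0.11, adjusted p = 0.0243) with no overlap. The RPL3 intron rose by 0.32 (adjusted p = 0.0188) and the RPL9 intron by 0.35 (adjusted p = 0.0166). Relative to their genes none passed (0.124% of all introns), where the RPL3 intron had 0.45 (adjusted p = 0.205), although 3 pass in the authors' deposited table of bin usage. On their own counts 0 passed without DMSO library c, TMG library a or TMG library b, 1 without DMSO library a or b and 4 without TMG library c. OSMI-2 at 2 h (0.129% of all introns) and TMG at 6 h (0.19%, with 0.166% higher and 0.0237% lower) gave 0 of 7, and relative to the gene the same was true (0.0643% and 0.0957% of all introns). At an unadjusted p under 0.05, 1 intron was below it with OSMI-2 at 2 h and 0 with TMG at 6 h.

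The DMSO groups differed in these introns too. In the OSMI-2 experiment the long RPL11 bin (1.02, adjusted p = 4.77e-05) and the RPL3 intron (0.45, adjusted p = 0.0421) rose from 2 h to 6 h and the RPL13 intron fell (−0.74, adjusted p = 0.002), beside 4038 of 4472 introns (90.3%, with 88.5% higher and 1.79% lower). The median of the 7 was −0.09, and that of all introns 1.70. These values are of intron counts, while the member genes were lower at 6 h. As a share of its gene, the RPL13 intron held 0.188, 0.248 and 0.228% at 2 h and 0.350, 0.304 and 0.309% at 6 h. The RPS3A intron held 0.598, 0.646 and 0.978%, then 2.29, 2.13 and 1.48%. Shares of the RPL9 intron overlapped between the times, and those of all other bins were higher at 6 h without overlap. These shares were not tested. By intron counts without 6 h library a, 2 rose and 2 fell. Among them were the long RPL11 bin (0.88), the RPL3 intron (0.59) and the RPL13 intron (−0.52). The call of the RPL3 intron was lost without 2 h library a (0.48) and without 6 h library b (0.44) or c (0.39). With TMM scaling over introns alone, the RPL11 bin (−0.63) and the RPL3 intron (−1.18) changed sign. The TMG experiment gave 0 of 7 (21.9% of all introns, with 21% higher and 0.904% lower), with 3 at an unadjusted p under 0.05 and 4 past the threshold without DMSO 6 h library a.

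**Figure D5:**
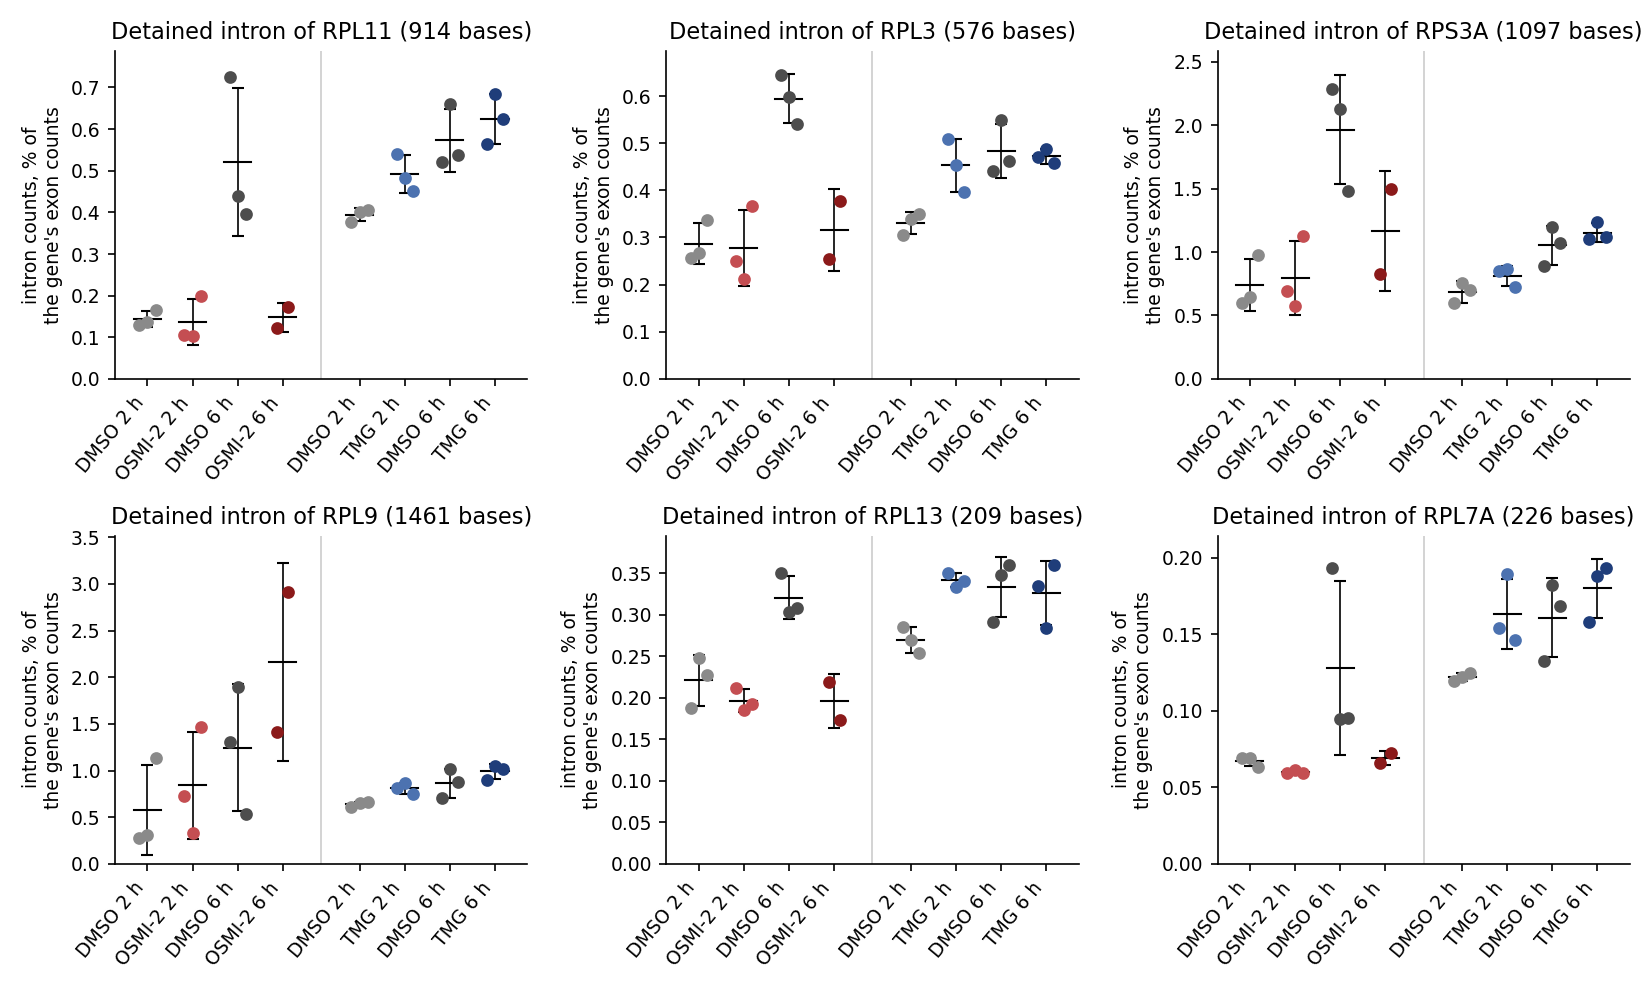
Counts of 6 detained introns as a percentage of the exon counts of their gene, 1 point per library, with group means and 1 SD, the OSMI-2 experiment left of the grey line and the TMG experiment right of it. The long RPL11 bin is at 0.397 to 0.726% in DMSO at 6 h and at 0.123 and 0.172% with OSMI-2, and the RPL9 intron shows the widest spread, up to 2.92%.

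The other bins of the members were read in the authors' deposited table of bin usage, which compares each bin with the rest of its gene. There, 1 of 517 bins outside detained introns passed an adjusted p of 0.05 with OSMI-2 at 2 h (0.00893% of all such bins), 52 of 507 in 36 members with OSMI-2 at 6 h (4.08%), 27 of 499 with TMG at 2 h (0.14%) and 6 of 488 with TMG at 6 h (0.0565%). Of the 52, the authors' deposited table gives 16 as higher, 27 as lower and 9 without a fold change. The bins named next were chosen after their values were seen. RPS3, a small-subunit protein with a known role in DNA repair, has a 1502-base bin at chr11:75113491-75114992 in hg19 that the authors class as an alternative last exon. It held 0.166, 0.111 and 0.0931% of the gene's counts with DMSO at 6 h in the OSMI-2 experiment, and 0.0370 and 0.0438% with OSMI-2. The authors' deposited table gives it −1.51 on the log2 scale with OSMI-2 at 6 h and 0.70 with TMG at 2 h. With TMG at 2 h it held 0.153, 0.165 and 0.149%, above the DMSO libraries at 0.0894, 0.0924 and 0.104%.

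In RPL23, a large-subunit protein that can also bind MDM2, the last bin (chr17:37004116-37004292, hg19) had a fold change of 1.32 with TMG at 6 h in the authors' deposited table. It held 0.329, 0.337 and 0.289% of the gene's counts with TMG at 6 h and 0.100, 0.155 and 0.130% with DMSO. At 2 h, however, the same bin was at 0.337, 0.252 and 0.319% with DMSO and at 0.0832, 0.0889 and 0.331% with TMG. The high values thus sat in the treated group at 6 h and mostly in the DMSO group at 2 h.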

How the data were processed

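The authors deposited whole-number counts per bin and library without normalization, per the file headers, in 1 table per drug and time. The tables also hold the authors' p-values, adjusted p-values and log2 fold changes of bin usage, per the file headers. STAR and hg19 are named in the submitters' processing notes; strand use in counting is not given in the sources used here, so overlapping genes are uncertain. A read that touches several bins can be counted in each, so counts are not independent molecules.

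Bins that are not detained introns were summed to give the count of a gene. Library size was the table total scaled by TMM over genes and detained introns together. Normalised CPM are counts-per-million of that size. Genes and introns passing filterByExpr were tested with edgeR 4.0.16 (quasi-likelihood, two-sided), and introns relative to their gene with limma 3.58.1 on log2 ratios with a pseudocount of 1 where both means were at least 10 counts, in R 4.3.3. P-values were adjusted by Benjamini-Hochberg over all features, with a threshold of 0.05, and only the groups compared entered a fit. The SE of a log2 fold change is its size divided by the square root of the F statistic. The tests were tested on simulated counts, where that of introns relative to their gene recovered fewer of the smaller changes than those of counts. Simulated replicates varied alike in both experiments, so the simulation does not describe the wider spread between the OSMI-2 libraries.

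Named with values were up to 6 largest rises and 6 largest falls per comparison among members that passed, had a mean count of 50 or more and no overlap of groups, or the 3 largest of each sign where none passed, plus paralogue pairs, stalk genes, RPL5, RPL11 and members with a detained intron. A few members that the rule names are not reported here. Members and lists were chosen with earlier results of these data known. GC content was available for 95.3% of genes. The tables hold 23 of 24 labelled libraries; 1 OSMI-2 library at 6 h is not analysed here, although the design assumed 3. Every count column was used. Columns carry letters, which name libraries here, and not the replicate numbers of the titles. In 22 pairs of libraries within groups none agreed within sampling noise. Alternatives were other size factors, no filter, the longest bin, DESeq2 1.42.0, 1 fit of all libraries, removal of the GC trend, and leaving out each library.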

Additional observations from a re-analysis of the deposited data

Results flagged for a closer look

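At 6 h the difference between the OSMI-2 effect and the TMG effect was tested itself (edgeR, 4 groups in 1 fit). It passed for 17 of 79 members (21.5%), a share near the 19.9% of all genes, so the count is not particular to the members. The fit pooled the spread between replicates over both experiments, which differed in it. For RPL23A the SE of the difference was 0.25, below the 0.34 of its OSMI-2 effect alone. The p-values may thus understate the spread of the OSMI-2 experiment. The difference of the 2 log2 fold changes was 1.57 for RPL28, 1.45 for RPS2, 1.41 for RPL13, 1.35 for RPS15 and 1.27 for RPL23A, with adjusted p-values from 0.0116 to 0.0163. It was −1.58 for RPL9 (adjusted p = 0.0373) and −0.97 for RPL30 (adjusted p = 0.0394). RPL10, RPL18, RPL8, RPLP1, RPLP2, RPS14, RPS28 and RPS9 also passed, with positive differences. The 5 members first named have a GC content of 49.9 to 66.2%, RPL30 one of 52.9% and RPL9 one of 40.6%. The part of GC in this difference was not tested.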

How the results depend on the processing

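Each library was left out in turn, and other choices were changed 1 at a time. Counts below are of members only. Shares of all genes called under each alternative are not given here, so a count that moves is not read as particular to the members. The counts of members past the threshold for OSMI-2 at 2 h and for the TMG effect at 6 h minus that at 2 h were 0 under every alternative run. With OSMI-2 at 6 h (4 members) the count was 8 with the longest bin, 46 with all libraries in 1 fit (43 higher and 3 lower), 24 with the GC trend removed, and 0 to 30 with single libraries left out. The fit of all libraries pooled the spread between replicates over both experiments, so its p-values may understate the spread of the OSMI-2 experiment. With DESeq2's size factors or TMM over genes only, OSMI-2 at 6 h gave 0 members higher and 3 lower. With TMG at 2 h (8 members) it was 3 with DESeq2's size factors or TMM over genes only, 5 with DESeq2's own test, 0 with all libraries in 1 fit, 1 with the GC trend removed, and 0 to 14 with single libraries left out. With TMG at 6 h (0 members) it was 1 with DESeq2's size factors, TMM over genes only, the longest bin or DESeq2's own test, 2 with the GC trend removed, and 0 to 2 with single libraries left out. Between DMSO groups it was 26 with DESeq2's size factors and 12 to 65 with libraries left out in the OSMI-2 experiment (60 members), and 11 to 48 in the TMG experiment (29 members). With libraries left out it was 0 to 60 for the OSMI-2 minus TMG effect at 6 h (17 members; 2 to 8 without any 1 library of the TMG experiment), 0 to 1 at 2 h and 0 to 8 for the OSMI-2 effect at 6 h minus that at 2 h (8 without DMSO 6 h library a). For detained introns of members, leaving out libraries gave 3 to 6 with OSMI-2 at 6 h (5 introns; 3 without DMSO library a or OSMI-2 library a), 2 to 5 relative to the gene, 0 to 4 with TMG at 2 h (3 introns) and 0 to 4 between the DMSO groups of the TMG experiment. TMM over introns only gave 0 with TMG at 2 h, 7 and 1 between the DMSO groups of the OSMI-2 and TMG experiments. All libraries in 1 fit gave 0 with TMG at 2 h, and the authors' test of bin usage gave 3 where introns relative to their gene gave 0. TMM over introns only also turned the sign with OSMI-2 at 6 h for the short RPL11 bin (0.45), RPL3 (0.36), RPL9 (0.82) and RPS3A (0.75), and between the DMSO groups of the OSMI-2 experiment for the long RPL11 bin (−0.63) and RPL3 (−1.18); that scaling sets the typical intron to no change. The longest bin turned RPS18 (0.12) and RPS15 (0.27) with TMG at 2 h, and the cause was not tested. With libraries left out, the median of members ran from −0.038 to 0.061 for TMG at 6 h, highest without DMSO library a, and from −0.11 to 0.17 for the OSMI-2 minus TMG effect at 2 h, lowest without OSMI-2 library b. In comparisons where a group had 1 library left, it was assumed to vary like the others. No paired analysis was possible because the columns carry letters and not the replicate numbers of the labels. By depth, RPL3L (1 to 18 counts per library) was far below RPL39L, whose lowest count was 118.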
